A study of Sus scrofa with 8 samples.

Results

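The collagen genes of the pig right ventricle were compared between animals with 1 disrupted copy of PKP2 and wild-type animals. Members are all rows of the deposited expression table whose gene symbol is COL, a number, A and a number, which gives 43 of 30550 genes. By protein class these are 11 fibrillar, 6 basement membrane and 10 FACIT chains (fibril-associated collagens with interrupted triple helices) and 16 others. The study sequenced RNA from right ventricular tissue of pigs (Sus scrofa), with 4 libraries from PKP2 heterozygous knockouts (PKP2_het) and 4 from wild types (WT). Plakophilin 2, the product of PKP2, belongs to the desmosomes, the junctions that hold heart muscle cells together, and the series title presents the pig as a model of arrhythmogenic cardiomyopathy. The sources used here do not give age, sex, breed, litter or the way the knockout was made, and they name no treatment for either group. Whether each library comes from its own animal is not stated, and p-values therefore cover only the variation among the libraries, which may be technical.

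Collagens are secreted proteins in which 3 alpha chains wind into a triple helix built on repeats with regularly spaced glycines. Fibrillar collagens I and III form the tensile network between heart muscle cells, with collagen V inside the same fibrils. Collagen IV forms the sheet-like network of the basement membrane around muscle cells and capillaries, FACIT collagens sit on fibril surfaces, and collagen VI forms beaded filaments around cells. Fibroblasts are the main source of fibrillar collagen in the heart, and replacement of muscle by fibrous and fatty tissue is a known feature of arrhythmogenic cardiomyopathy.

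The libraries held 23637697 to 31313628 fragments assigned to genes. Levels are given in FPKM (fragments per kilobase of gene length, with a library scaling by the authors that the sources used here do not describe). PKP2 itself, which checks the labels, was at 45.4, 40.7, 24.6 and 45.9 FPKM in PKP2_het replicates 1 to 4. In WT replicates 1 to 4 it was at 52.9, 62.2, 61.1 and 72.8 FPKM. The groups did not overlap (exact two-sided permutation p = 0.0286, the smallest that 70 relabellings can give). On the log2 scale PKP2 was at -0.69 ± 0.20 (SE) relative to WT, with a limma adjusted p across all genes of 0.164. PKP2_het replicate 3 stood apart from the other libraries, with 52.1% mitochondrial fragments against 21.1% to 37.6% elsewhere and with long genes lower relative to short ones. Its deviation was -0.12 log2 units per doubling of gene length, against -0.050 to 0.048 in the other libraries. The labels name cardiomyocytes as the cell type, but the extraction is described for tissue. The fibroblast markers GSN and DCN were at 97.8 to 264 and 88.7 to 256 FPKM, and the endothelial markers PECAM1 and VWF at 55.4 to 141 and 48.4 to 121 FPKM, so RNA of other cells was present. The 10 cardiomyocyte markers summed to 20221 to 25610 FPKM per library. The sums were 335 to 668 FPKM for 9 fibroblast markers and 242 to 554 FPKM for 11 endothelial markers. Not every cardiomyocyte marker was above the single genes named, as RYR2 was at 34.4 to 134 FPKM. In such bulk tissue, fewer cells of a type and less RNA per cell cannot be told apart.

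A few chains made up most of the collagen message of the 43 members. The 8 members with the highest mean level were COL3A1, COL4A1, COL4A2, COL6A2, COL1A2, COL15A1, COL1A1 and COL18A1. They held 81.3% to 87.4% of the FPKM summed over the 43 members in each library. Rows with placeholder symbols are not in this sum, among them the collagen VI alpha-1 chain at a mean of 28.9 FPKM. Of the 43 members 9 had a mean of at least 10 FPKM, 9 lay between 1 and 10 FPKM, and 25 lay below 1 FPKM. The collagen sum was 274, 438, 326 and 344 FPKM in PKP2_het replicates 1 to 4 and 345, 370, 367 and 413 FPKM in the WT libraries. PKP2_het therefore held both the lowest and the highest library, and the WT values lay between them. Fibrillar chains contributed 36.2% to 45.2% of the sum in PKP2_het and 34.0% to 45.3% in WT. Basement membrane chains contributed 22.2% to 33.8% and 23.5% to 41.0%, and FACIT chains 1.85% to 2.72% and 2.12% to 3.35%. The remaining classes contributed 28.2% to 29.9% in PKP2_het and 22.7% to 27.8% in WT, ranges that did not overlap. This last share was not tested, because it is a sum over chosen members. It leaves out the collagen VI alpha-1 chain, which is of the same class and was at 21.3 to 34.4 FPKM. The shares hold for the 43 members only. With that chain added to its class and to the collagen sum, the ranges overlap, the highest WT share lying above the lowest PKP2_het share.

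**Figure D1:**
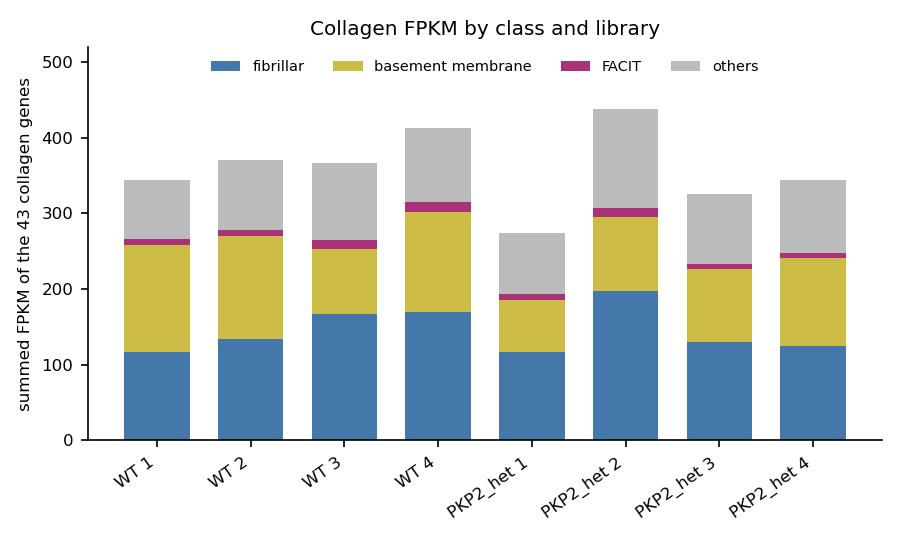
Summed FPKM of the 43 collagen genes (vertical axis) in each of the 8 libraries (horizontal axis), split by class. The sums run from 274 to 438 FPKM, and both extremes are PKP2_het libraries.

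No collagen gene passed the threshold. A gene was tested if it reached 1 FPKM in at least 4 of the 8 libraries, whatever their group, and values were compared as log2(FPKM + 1) with limma, so that fold changes of low genes are understated. Of the 43 members 17 were tested, namely 7 fibrillar, 3 basement membrane, 2 FACIT and 5 other chains. Of these 0 had an adjusted p under 0.05, while 1.86% of all 10757 genes tested did (1.15% higher and 0.707% lower in PKP2_het). At an unadjusted p under 0.05 there were 3 of 17, all higher in PKP2_het (COL18A1, COL5A3 and COL4A5), against 12.8% of all genes tested, 6.88% higher and 5.96% lower. In 2 of the 17, COL18A1 and COL5A3, the groups did not overlap, against 9.19% of all genes tested, 4.86% higher and 4.33% lower. Voom, which models the recovered fragments, also gave 0 calls among these 17, against 1.85% of all genes in that fit, and 4 at an unadjusted p under 0.05, against 12.8%. The median log2 fold change of the 17 was 0.018, beside -0.022 for all genes tested, with 9 positive and 8 negative values. The summed FPKM of all genes was 1057305 in PKP2_het replicate 3, with 52.1% mitochondrial fragments, and 472019 to 728353 in the other libraries. Rescaling the libraries to equal FPKM sums, which lowered the values of that library most, moved the median of all genes tested to -0.23. It left 4 collagen values positive and 13 negative (76.5% negative, against 85.2% of all genes). Of the 17, 2 were then lower at an unadjusted p under 0.05, against 5.04% of all genes. At that threshold 0 of the 17 were higher, against 177 of all 10757 genes tested. After rescaling, COL18A1 stood at 0.24 (limma adjusted p = 0.759), COL5A3 at 0.41 (adjusted p = 0.732) and COL4A2 at -0.73 (adjusted p = 0.696). Relative to the shifted median, COL18A1 stood at 0.48, COL5A3 at 0.65 and COL4A2 at -0.49. Subtracting that median takes back most of the rescaling, so the values relative to it are no separate check. Counts of this size are close to the background, and with the filter used they describe 17 members and not the family.

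**Figure D2:**
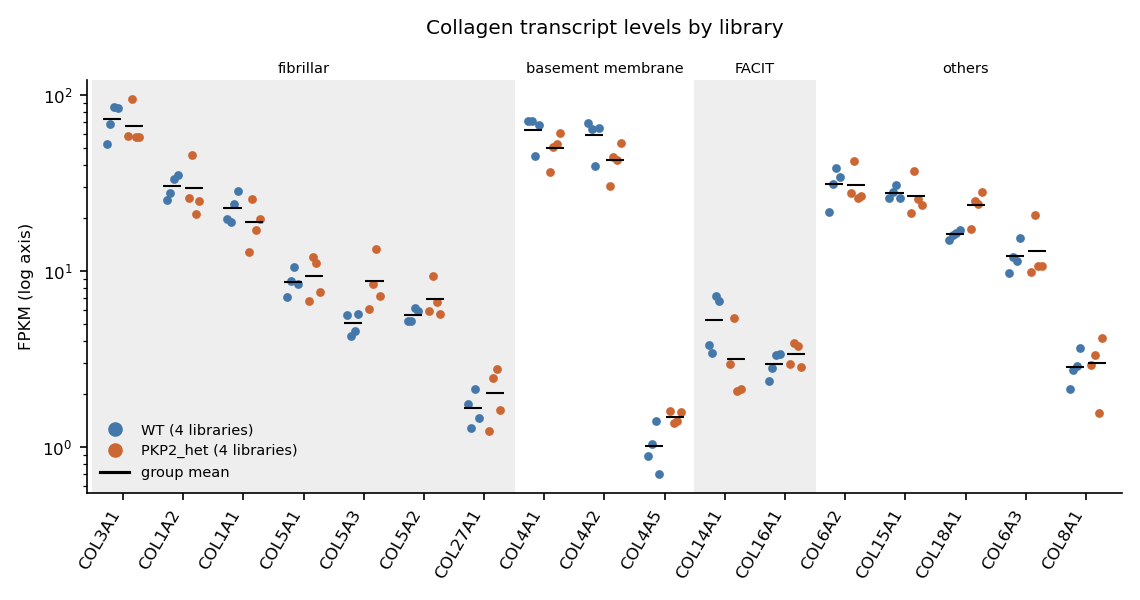
FPKM on a log axis for the 17 collagen genes tested, grouped by class, with 1 point per library and a bar for the mean of each group. COL18A1 and COL5A3 are the genes whose PKP2_het points all lie above the WT points, with 17.1 against 17.0 FPKM at the nearest points for COL18A1.

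Among the fibrillar chains, the transcripts of the major fibril collagens had group means closer together than their own libraries were. COL3A1, the single chain of collagen III, was at 57.9, 94.3, 57.1 and 57.7 FPKM in PKP2_het and at 52.6, 68.4, 85.3 and 83.9 FPKM in WT. PKP2_het replicate 2 was the highest library of all, and the other PKP2_het libraries lay within the WT range. The means were 66.7 ± 18.4 and 72.5 ± 15.4 FPKM (SD, n = 4), with a log2 fold change of -0.13 ± 0.21 (SE; limma adjusted p = 0.817).

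COL1A1 and COL1A2 encode the chains of collagen I, of which the usual molecule holds a pair of alpha-1 chains and a single alpha-2 chain. COL1A1 (chromosome 12, 26379087 to 26397180) was at 12.8, 25.7, 17.1 and 19.7 FPKM in PKP2_het and at 19.7, 18.8, 24.0 and 28.3 FPKM in WT. COL1A2 was at 25.9, 45.3, 21.1 and 24.9 FPKM in PKP2_het and at 25.2, 27.6, 33.2 and 35.1 FPKM in WT. For both chains the groups overlapped, and replicate 2 was again the highest PKP2_het library. The log2 fold change was -0.28 ± 0.21 (SE; limma adjusted p = 0.618) for COL1A1 and -0.09 ± 0.22 (adjusted p = 0.877) for COL1A2. On this scale the 95% confidence interval for COL1A1 ran from 0.596 to 1.14 times the WT level, for COL1A2 from 0.664 to 1.32 times and for COL3A1 from 0.660 to 1.27 times. Single libraries moved these values. Without PKP2_het replicate 2 the log2 fold changes were -0.44 for COL1A1, -0.32 for COL1A2 and -0.30 for COL3A1. COL1A1 was nearest to 0 without PKP2_het replicate 1 (-0.12), and COL3A1 without WT replicate 3 (-0.042). COL1A2 turned to 0.038 without PKP2_het replicate 3.

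Collagen V regulates fibril diameter, and its chains had fold changes of different size. COL5A3, the alpha-3 chain, which only some collagen V molecules hold, was at 6.05, 8.40, 13.2 and 7.21 FPKM in PKP2_het and at 5.59, 4.28, 4.53 and 5.70 FPKM in WT. The lowest PKP2_het library, at 6.05 FPKM, lay above the highest WT library, and PKP2_het replicate 3 was far above the rest. The means were 8.73 ± 3.16 and 5.02 ± 0.726 FPKM (SD, n = 4), a ratio of 1.74. The limma log2 fold change was 0.65 ± 0.20 (SE), with an adjusted p of 0.193 (limma, 0.0102 before adjustment). Without PKP2_het replicate 3, which stood apart, it was 0.45 with an adjusted p of 0.123. COL5A3 lies on chromosome 2, from 68828197 to 68869914.

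COL5A1 and COL5A2, the chains of the common collagen V molecule, had overlapping groups. COL5A1 was at 6.76, 12.004, 11.02 and 7.53 FPKM in PKP2_het and at 7.11, 8.71, 10.4 and 8.45 FPKM in WT, with a log2 fold change of 0.07 ± 0.18 (SE; limma adjusted p = 0.890). COL5A2 was at 5.94, 9.28, 6.66 and 5.65 FPKM and at 5.17, 5.18, 6.12 and 5.89 FPKM, with a log2 fold change of 0.24 ± 0.14 (adjusted p = 0.546). Whether COL5A3 differed from the other chains of collagen V was not tested. COL27A1, a fibrillar chain best known from cartilage, had 1.23 to 2.75 FPKM in PKP2_het and 1.28 to 2.12 FPKM in WT.

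In the basement membrane, COL4A1 and COL4A2 were the abundant chains. They form the alpha-1 and alpha-2 network found in nearly all basement membranes. COL4A1 was at 36.1, 50.4, 52.5 and 60.8 FPKM in PKP2_het and at 70.4, 70.5, 44.7 and 67.3 FPKM in WT. COL4A2 was at 30.3, 44.5, 42.3 and 52.9 FPKM in PKP2_het and at 69.3, 63.5, 39.2 and 64.8 FPKM in WT. All 4 PKP2_het libraries lay below WT replicates 1, 2 and 4 for both genes, while WT replicate 3 lay inside the PKP2_het range. The means were 49.95 ± 10.2 and 63.2 ± 12.5 FPKM for COL4A1 and 42.5 ± 9.31 and 59.2 ± 13.5 FPKM for COL4A2 (SD, n = 4).

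Their log2 fold changes were -0.33 ± 0.20 (SE; limma adjusted p = 0.536) and -0.46 ± 0.22 (adjusted p = 0.416). The library at the low end decided much of the size: without PKP2_het replicate 1 the COL4A1 log2 fold change was -0.19, and without WT replicate 3 it was -0.49. COL4A1 (chromosome 11, 76858332 to 76997409, minus strand) and COL4A2 (chromosome 11, 76996885 to 77161617, plus strand) are arranged head to head and their annotated ends overlap by 525 bases. The sources used here do not say whether fragments were counted by strand.

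COL4A5 encodes a chain of the alpha-3, alpha-4 and alpha-5 network and of the alpha-5 and alpha-6 network. It was at 1.60, 1.36, 1.40 and 1.58 FPKM in PKP2_het and at 0.891, 1.04, 1.40 and 0.700 FPKM in WT. Only WT replicate 3 reached the PKP2_het range. The log2 fold change was 0.32 ± 0.11 (SE), with an adjusted p of 0.259 (limma, 0.0193 before adjustment). The ratio of the means was 1.47, larger than the log2 value shows, because the pseudocount of 1 weighs heavily at this level. COL4A6, its neighbour on chromosome X at a distance of 208 kb, had 0.393 to 0.877 FPKM in PKP2_het and 0.379 to 0.818 FPKM in WT. COL4A3 and COL4A4, a pair that overlap head to head on chromosome 15, had at most 0.129 FPKM in any library.

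**Figure D3:**
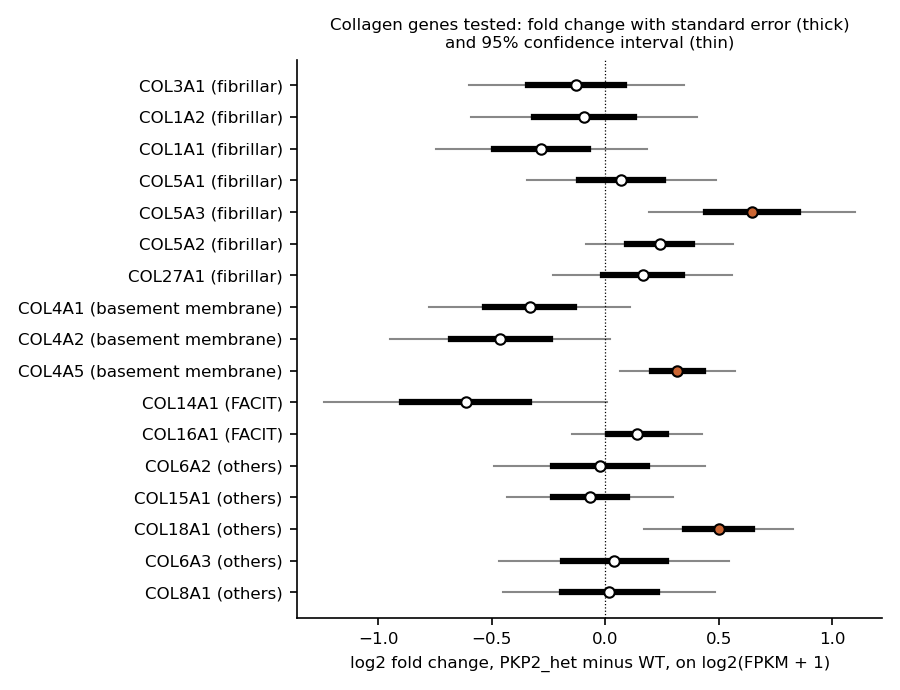
Log2 fold change (horizontal axis, PKP2_het minus WT on log2(FPKM + 1)) of the 17 collagen genes tested, with the standard error as a thick bar and the 95% confidence interval as a thin line. Filled points have an unadjusted limma p under 0.05 (COL5A3, COL4A5 and COL18A1), and no gene passed after adjustment.

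Of the FACIT chains, COL14A1 and COL16A1 were tested. COL14A1, which binds to the surface of collagen I fibrils, was at 2.94, 5.40, 2.07 and 2.14 FPKM in PKP2_het and at 3.78, 3.41, 7.20 and 6.74 FPKM in WT. PKP2_het replicates 1, 3 and 4 were below every WT library, and replicate 2 was in the middle of the WT range. The log2 fold change was -0.61 ± 0.28 (SE; limma adjusted p = 0.402), the most negative of the 17, and the means were 3.14 ± 1.56 and 5.28 ± 1.96 FPKM (SD, n = 4). COL16A1 was at 2.95, 3.90, 3.76 and 2.86 FPKM in PKP2_het and at 2.36, 2.79, 3.33 and 3.39 FPKM in WT, with a log2 fold change of 0.14 ± 0.13 (SE; adjusted p = 0.686). COL21A1, the next in level but under the filter, was at 1.04, 1.22, 0.658 and 0.268 FPKM in PKP2_het and at 0.418, 0.336, 0.965 and 0.608 FPKM in WT. PKP2_het held both its highest and its lowest library. COL12A1, a relative of COL14A1, had 0.226 to 0.965 FPKM over all libraries.

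Among the other classes COL18A1 had the smallest p of the 17 collagen genes tested. Collagen XVIII is a proteoglycan-like collagen of vascular and epithelial basement membranes, whose carboxy-terminal fragment is endostatin, an inhibitor of blood vessel growth. COL18A1 was at 17.1, 24.9, 23.8 and 28.1 FPKM in PKP2_het and at 15.02, 15.9, 16.4 and 17.0 FPKM in WT. The WT libraries lay close together, PKP2_het replicate 1 was only just above them, and the other 3 PKP2_het libraries were well above. The means were 23.5 ± 4.61 and 16.1 ± 0.856 FPKM (SD, n = 4), a ratio of 1.46.

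The COL18A1 log2 fold change was 0.50 ± 0.15 (SE), with an adjusted p of 0.166 (limma, 0.00732 before adjustment). Without PKP2_het replicate 1, the PKP2_het library nearest to WT, it was 0.64 and the gene passed the threshold (limma adjusted p = 0.0372). In that fit 1.23% of all genes tested passed. When any other single library was left out, the limma adjusted p of COL18A1 ran from 0.152 to 0.368. With library quality weights, which give little weight to PKP2_het replicate 3, both COL18A1 (log2 fold change 0.57, adjusted p = 0.0188) and COL5A3 (0.60, adjusted p = 0.0241) passed. In that weighted fit 6.13% of all genes tested passed, so the background was higher too. COL18A1 lies on chromosome 13, from 207907835 to 207984082.

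COL15A1, the closest relative of COL18A1 and another basement membrane zone collagen, was at 21.2, 36.6, 25.5 and 23.5 FPKM in PKP2_het and at 26.0, 27.8, 30.6 and 25.7 FPKM in WT. Its groups overlapped, with a log2 fold change of -0.07 ± 0.16 (SE; limma adjusted p = 0.880). Whether the 2 relatives differed from each other in response was not tested.

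Collagen VI chains had group means that were close to each other. COL6A2 was at 27.7, 42.0, 25.9 and 26.6 FPKM in PKP2_het and at 21.4, 31.1, 38.1 and 33.9 FPKM in WT, with a log2 fold change of -0.03 ± 0.21 (SE; limma adjusted p = 0.971). COL6A3 was at 9.86, 20.6, 10.6 and 10.6 FPKM and at 9.77, 12.004, 11.4 and 15.4 FPKM, with a log2 fold change of 0.04 ± 0.23 (adjusted p = 0.957). In both genes replicate 2 was far above the other PKP2_het libraries, which lay in the lower part of the WT range. The alpha-1 chain is listed under a placeholder symbol (LOC100623720, annotated as the collagen alpha-1(VI) chain) and is therefore no member. It was at 24.1, 34.0, 32.9 and 23.5 FPKM in PKP2_het and at 21.3, 29.9, 34.4 and 30.8 FPKM in WT, with a log2 fold change of -0.02 ± 0.18 (SE; limma adjusted p = 0.973). The groups covered much the same range, and below it is called COL6A1. COL8A1, a short-chain network collagen of vessel walls, had 1.55 to 4.13 FPKM in PKP2_het and 2.12 to 3.65 FPKM in WT.

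The table holds 37 rows with placeholder symbols that are described as collagen alpha chains, of which 6 passed the filter. Of the 6, 0 were called, against 1.86% of all genes tested. The log2 fold change was negative for 4, among them LOC110255782 (described as collagen alpha-1(I) chain, -0.13), LOC102157778 (alpha-1(I)-like, -0.28) and LOC110259172 (alpha-1(VI)-like, -0.29). It was positive for 2, the same 2 that had an unadjusted limma p under 0.05, against 12.8% of all genes tested. One was LOC110260402 (alpha-2(I)-like, 0.67 ± 0.22, SE; limma adjusted p = 0.213). The other, LOC102158401, had the highest level of the 6, is described as collagen alpha-1(I) chain-like and lies on an unplaced scaffold. LOC102158401 was at 37.7, 70.1, 78.8 and 51.8 FPKM in PKP2_het and at 33.0, 27.9, 24.98 and 30.9 FPKM in WT. Every PKP2_het library was above every WT library, with a log2 fold change of 0.96 ± 0.22 (SE; limma adjusted p = 0.0663). It was singled out after its values were seen.

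The 26 members under the filter include genes with few fragments, for which the FPKM of single libraries are imprecise. Fragments per gene were recovered from the table, and all genes with at least 40 fragments over the 8 libraries were fitted with voom, an analysis chosen after seeing the data. Of the 26 members 19 entered this fit and 0 passed the adjusted threshold, against 1.88% of 15948 genes (1.19% higher and 0.69% lower). At an unadjusted p under 0.05 there were 6 of 19 (COL22A1, COL11A2 and COL28A1 higher, COL20A1, COL23A1 and COL11A1 lower), against 13.8% of all genes fitted, 7.49% higher and 6.28% lower. In 3 of the 19 the groups did not overlap in FPKM, against 9.7% of all genes fitted, 5.26% higher and 4.44% lower. The 4 genes of the plot of fragment counts were chosen after their values were seen. Intervals on these ratios cover counting error only and not the differences between animals.

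COL20A1, a FACIT chain, had 4, 7, 4 and 2 fragments in PKP2_het and 29, 38, 22 and 120 fragments in WT. WT replicate 4 held more than the other WT libraries together, and all PKP2_het libraries were below all WT libraries. Pooled over libraries, the level was 11.7-fold lower in PKP2_het (95% exact binomial interval 7.11 to 20.4), and without WT replicate 4 it was 6.72-fold lower (3.97 to 12.1). The voom log2 fold change was -3.16 ± 0.83 (SE) with an adjusted p of 0.0943, and -2.65 with an adjusted p of 0.0678 without WT replicate 4. COL20A1 lies on chromosome 17, from 62395383 to 62419054.

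COL22A1, a FACIT chain known from the junctions of muscle with tendon, had more fragments in PKP2_het. It had 8, 16, 18 and 32 fragments in PKP2_het and 1, 4, 2 and 0 fragments in WT, so that every PKP2_het library held more than every WT library. The pooled level was 11.1-fold higher in PKP2_het (95% exact binomial interval 5.15 to 28.7), from a WT total of 7 fragments. Without WT replicate 2, which held 4 of these, the ratio was 19.1 (6.28 to 94.6). The voom log2 fold change was 3.38 ± 0.83 (SE) with an adjusted p of 0.0756, and over the fits that left out 1 library the adjusted p ran from 0.0531 to 0.200.

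COL11A2, a minor fibrillar chain of cartilage, had 14, 23, 22 and 25 fragments in PKP2_het and 1, 6, 14 and 7 fragments in WT, and a voom adjusted p of 0.144. Its groups touch at 14 fragments but do not overlap in FPKM. COL10A1, the collagen of hypertrophic cartilage, had 12, 4, 5 and 5 fragments in PKP2_het and 0, 0, 0 and 1 in WT. The ratio of the pooled COL10A1 levels was 27.4, with a 95% exact binomial interval from 4.50 to 1124, and 27 fragments in all were too few for the voom fit. COL10A1 lies inside NT5DC1, which is annotated on the opposite strand and had mean levels of 1.87 FPKM in PKP2_het and 2.15 FPKM in WT, and reads of the pair cannot be told apart if counting ignored the strand. Cartilage and tendon markers had 0 of 7 genes past the filter, with summed levels of 1.23 to 2.47 FPKM in PKP2_het and 0.987 to 1.56 FPKM in WT. Their part in these results was not tested.

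**Figure D4:**
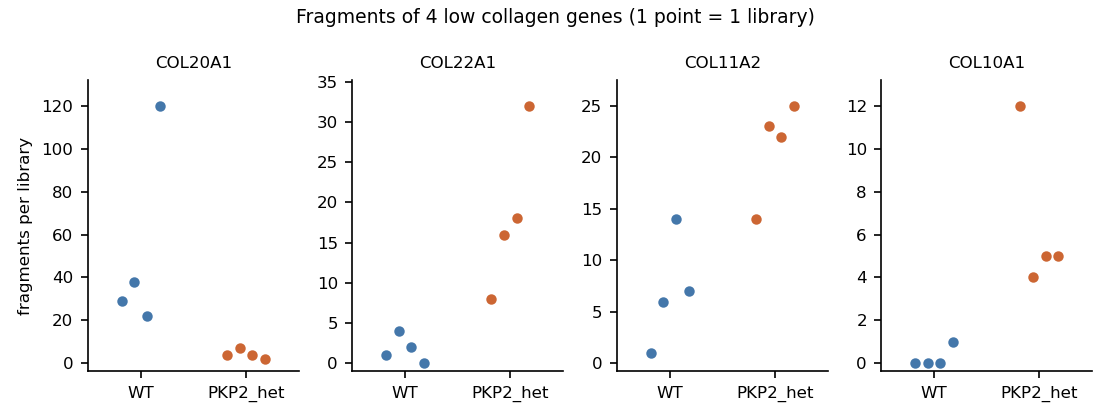
Fragments per library (vertical axis, own scale in each panel) of COL20A1, COL22A1, COL11A2 and COL10A1, with 1 point per library. COL20A1 has at most 7 fragments in a PKP2_het library and at least 22 in a WT library, and COL10A1 has 1 fragment in all WT libraries together.

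The other members under the filter showed wide spread within groups. COL28A1, a von Willebrand factor A domain collagen, was at 0.732, 0.831, 2.50 and 2.04 FPKM in PKP2_het and at 0.781, 0.590, 0.787 and 0.0722 FPKM in WT, with a voom adjusted p of 0.309. Its level was high in PKP2_het replicates 3 and 4 and low in WT replicate 4. COL23A1, a transmembrane collagen, was at 0.327 to 0.683 FPKM in PKP2_het and 0.535 to 0.959 FPKM in WT (voom adjusted p = 0.284). COL11A1 had 13 fragments in PKP2_het and 53 in WT (voom adjusted p = 0.340). COL6A6 and COL7A1 had 0.473 to 1.29 and 0.267 to 1.05 FPKM over all libraries. COL24A1, COL6A5 and COL9A2 reached at most 0.366, 0.328 and 0.258 FPKM in any library. COL8A2, COL13A1, COL17A1, COL25A1 and COL26A1 reached at most 0.184 FPKM. COL2A1, COL9A1, COL9A3 and COL19A1 had 15, 21, 38 and 6 fragments over all 8 libraries.

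Within a library, the ratio of 2 chains does not depend on how the library was scaled. For 6 ratios of chains that share a molecule or a fibril, exact two-sided permutation tests were run, with adjustment over the 6. The smallest p they can give is 0.0286, so that at least 4 of the 6 ratios would have to reach it for any to pass, and that 0 of 6 passed says little. The nearest was COL4A1 over COL4A2, at 1.19, 1.13, 1.24 and 1.15 in PKP2_het and 1.02, 1.11, 1.14 and 1.04 in WT. Only WT replicate 3 exceeded the lowest PKP2_het library, with an exact permutation p of 0.0571 and an adjusted p of 0.343. COL1A1 over COL1A2 was 0.493, 0.567, 0.809 and 0.789 in PKP2_het and 0.782, 0.679, 0.722 and 0.807 in WT, so that PKP2_het replicates 1 and 2 were below all other libraries (exact permutation p = 0.4, adjusted p = 0.6). In every library the alpha-1 transcript was thus below the alpha-2 transcript on the per-length scale. COL1A1 over COL3A1, the collagen I to III ratio, was 0.221 to 0.341 in PKP2_het and 0.275 to 0.374 in WT (exact permutation p = 0.371, adjusted p = 0.6). COL5A1 over COL5A2 was 1.14 to 1.65 and 1.37 to 1.71 in PKP2_het and WT (exact permutation p = 0.143, adjusted p = 0.429). The ratios of COL6A1 over COL6A2 and COL6A3 over COL6A1 had group means of 0.959 and 0.940, and of 0.447 and 0.423, each with an adjusted exact permutation p of 1.

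Levels of the chains tested did not all move between libraries in the same way. PKP2_het replicate 2 was the highest of the 8 libraries for 8 of the 17 chains tested (COL3A1, COL1A2, COL5A1, COL5A2, COL6A2, COL6A3, COL15A1 and COL16A1), whereas it was the highest for 6.94% of all genes tested. For COL6A3 it stood at 1.99 times the mean of the other 3 PKP2_het libraries, and for COL1A2 at 1.89 times. For COL14A1 and COL1A1, whose highest libraries were WT, it stood at 2.27 and 1.56 times. COL4A1, COL4A2 and COL18A1 did not share this, with PKP2_het replicate 2 at 1.012, 1.06 and 1.08 times the mean of the others. For COL5A3 and COL4A5 it was at 0.951 and 0.893 times. These genes were picked after their values were seen. COL4A1 and COL4A2 were lowest in PKP2_het replicate 1, followed by WT replicate 3.

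Cell type markers varied between the same libraries. The 9 fibroblast markers summed to 583, 668, 335 and 359 FPKM in PKP2_het and 351, 431, 544 and 478 FPKM in WT. At an unadjusted limma p under 0.05, 1 of 9 was higher and 1 lower, against 6.88% and 5.96% of all genes tested. Of the 9, 0 were called, against 1.86% of all genes tested. The sum of COL1A1, COL1A2 and COL3A1 was 96.5, 165, 95.2 and 102 FPKM in PKP2_het and 97.4, 115, 143 and 147 FPKM in WT. The library with the highest marker sum also had the highest collagen sum, but PKP2_het replicate 1 had a high marker sum and a low collagen sum. The 11 endothelial markers summed to 242, 294, 493 and 373 FPKM in PKP2_het and 554, 446, 289 and 393 FPKM in WT. Of their 11 log2 fold changes 10 were negative, beside 5846 of all 10757 genes tested. Among the 10 were TIE1 at -0.032 and EGFL7 at -0.023. Markers of the same cell type can move together, so these signs are not independent. At an unadjusted limma p under 0.05 there were 0 of 11, against 12.8% of all genes tested. COL4A1 and COL4A2 together were at 66.5, 94.9, 94.8 and 114 FPKM and at 140, 134, 83.9 and 132 FPKM. Both sums were highest in WT replicate 1 and lowest in PKP2_het replicate 1, while PKP2_het replicate 3 had the second highest endothelial sum and a low collagen sum. The part of these cell types in the collagen differences was not tested.

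**Figure D5:**
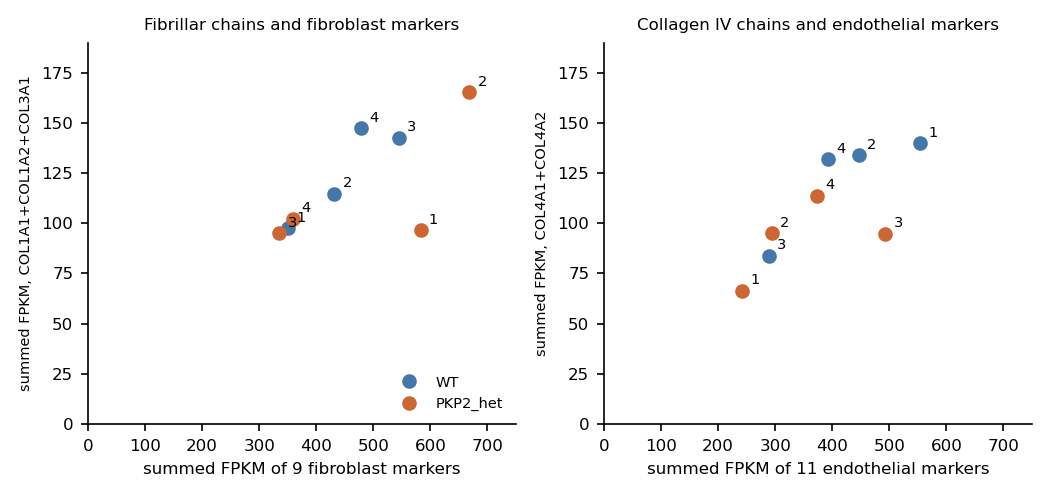
Summed FPKM of COL1A1, COL1A2 and COL3A1 against 9 fibroblast markers (left) and of COL4A1 and COL4A2 against 11 endothelial markers (right), with 1 point per library labelled by replicate number. PKP2_het replicate 1 on the left and PKP2_het replicate 3 on the right lie away from the other points, at 96.5 and 94.8 FPKM of collagen.

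Markers of activated fibroblasts overlapped between the groups. ACTA2, the smooth muscle actin of myofibroblasts and vessel walls, was at 56.3 to 146 FPKM in PKP2_het and 71.6 to 113 FPKM in WT (limma adjusted p = 0.859). POSTN (periostin), a matrix protein of activated fibroblasts, was at 0.395 to 1.13 FPKM in PKP2_het and 0.596 to 2.16 FPKM in WT, and COMP was listed at 0 in all libraries. CTGF, a matrix protein induced by TGF-beta signalling, was at 24.4, 23.4, 26.4 and 40.5 FPKM in PKP2_het and at 31.3, 12.3, 8.18 and 14.6 FPKM in WT. Its log2 fold change was 0.88 ± 0.34 (SE; limma adjusted p = 0.310, 0.0291 before adjustment). The list of 9 had 5 genes tested and 0 called, against 1.86% of all genes tested. At an unadjusted limma p under 0.05, 1 of the 5 was higher (CTGF) and 0 were lower, against 6.88% and 5.96% of all genes tested. The list summed to 96.1 to 196 FPKM in PKP2_het and 99.4 to 168 FPKM in WT, and ACTA2 was most of this sum in each library.

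Genes that make, process and bind collagen were not called either. Of a list of 84 such genes 63 were tested and 0 were called, against 1.86% of all genes tested. Their log2 fold changes were positive for 36 and negative for 27, with a median of 0.027, beside -0.022 for all genes tested. Voom gave 0 calls as well, against 1.85% of all genes in that fit. At an unadjusted voom p under 0.05 there were 5 of 63 genes, against 12.8%. With limma 6 of 63 had an unadjusted p under 0.05, all of them lower in PKP2_het, against 5.96% of all genes tested that were lower. They were PLOD1, SERPINH1, LOXL2, SPARC, ITGA1 and AGRN.

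In synthesis and folding, 0 of 17 tested genes passed, against 1.86% of all genes tested. For 2 the unadjusted limma p was under 0.05, against 12.8% of all genes tested. PLOD1, a lysyl hydroxylase that prepares collagen for crosslinking, was at 10.6, 10.4, 9.21 and 9.68 FPKM in PKP2_het and at 11.3, 14.5, 11.6 and 13.4 FPKM in WT. SERPINH1 (HSP47), the collagen chaperone of the endoplasmic reticulum, was at 33.7, 42.6, 37.6 and 44.2 FPKM in PKP2_het and at 51.1, 48.5, 46.3 and 48.6 FPKM in WT. For both genes every PKP2_het library was below every WT library. Over the whole list this held for 4 of the 63 genes tested (PLOD1, SERPINH1, SEC23A and AGRN), against 4.33% of all genes tested. The log2 fold changes were -0.32 ± 0.11 and -0.30 ± 0.12 (SE), with limma adjusted p-values of 0.253 and 0.311. In secretion, 0 of 5 were called, against 1.86% of all genes tested. SEC23A, a coat protein of the vesicles that leave the endoplasmic reticulum, was at 3.33 to 6.37 FPKM in PKP2_het and 6.48 to 7.53 FPKM in WT (limma adjusted p = 0.432). CREB3L1 had a limma adjusted p of 0.669.

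Enzymes outside the cell were likewise not called. In propeptide removal 2 of 8 genes were tested, BMP1, which removes the carboxy-terminal propeptide, and PCOLCE2, which enhances that step, at log2 fold changes of 0.32 ± 0.28 and 0.31 ± 0.27 (SE). In crosslinking, LOXL2 and LOXL1, of the lysyl oxidase family, were at 0.871 ± 0.157 and 1.89 ± 0.264 FPKM in PKP2_het and at 1.205 ± 0.149 and 2.73 ± 0.797 FPKM in WT (SD, n = 4), with limma adjusted p-values of 0.312 and 0.414. Among fibril-binding proteins, SPARC, which binds collagen in the matrix, was at 111, 125, 169 and 144 FPKM in PKP2_het and at 206, 170, 147 and 193 FPKM in WT (limma adjusted p = 0.370). ASPN (asporin) had an adjusted p of 0.584. Among breakdown genes TIMP4, a metalloproteinase inhibitor, and CTSK, a collagen-cleaving protease, had limma adjusted p-values of 0.432 and 0.781.

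MMP9, a gelatinase known from neutrophils and macrophages, was under the filter and had 0, 0.0442, 0 and 0 FPKM in PKP2_het and 0.279, 0.256, 0.376 and 0.261 FPKM in WT. All WT libraries were above all PKP2_het libraries. The fit without a filter on low values called it lower (limma log2 fold change -0.35, adjusted p = 0.00382), where 1.1% of the 22206 genes passed, and it was singled out for that reason. The ratio of the pooled levels, WT over PKP2_het, was 24.7 (95% exact binomial interval 8.13 to 122), from 78 WT and 3 PKP2_het fragments, the latter all in PKP2_het replicate 2. Of 9 macrophage markers 7 were tested, all with a negative log2 fold change (median -0.44) and 0 called. Of all 10757 genes tested 5846 had a negative log2 fold change, and 1.86% were called. The signs of such markers are not independent of each other. The 9 macrophage markers summed to 20.5 to 58.8 FPKM in PKP2_het and 38.2 to 53.7 FPKM in WT, and no marker of the list was at 0 in all libraries. Their part in the MMP9 difference was not tested.

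Receptors and basement membrane partners held the last of the low p-values. ITGA1, the alpha subunit of a collagen IV and collagen I integrin, was at 3.66, 4.89, 7.88 and 7.10 FPKM in PKP2_het and at 10.9, 10.1, 7.13 and 9.24 FPKM in WT, with a log2 fold change of -0.62 ± 0.21 (SE; limma adjusted p = 0.233). DDR1, a collagen-binding receptor kinase, had an adjusted p of 0.729. AGRN (agrin), a heparan sulfate proteoglycan of basement membranes, was at 4.97, 9.26, 10.3 and 8.45 FPKM in PKP2_het and at 13.8, 11.96, 13.2 and 12.5 FPKM in WT, without overlap of the groups. AGRN had the lowest adjusted p of the list (log2 fold change -0.62 ± 0.19, SE; limma adjusted p = 0.169). LAMA2, the laminin chain of muscle basement membranes, was at 13.1 ± 4.08 and 10.2 ± 1.61 FPKM (SD, n = 4; adjusted p = 0.562). ITGA1, AGRN and LOXL2 passed the threshold as lower with library quality weights, at adjusted p-values of 0.0313, 0.0425 and 0.0402, in a fit where 6.13% of all genes passed. Without PKP2_het replicates 3 and 4, ITGA1 passed as lower (0.0389) and OGN (osteoglycin), a small proteoglycan, as higher (0.0290), where 1.71% of all genes passed.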

How the data were processed

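RNA from right ventricular tissue (1 µg per library) was sequenced as 150 bp read pairs and aligned with HISAT2 2.0.5, per the submitters' processing notes and the labels. The authors deposited FPKM values per gene with gene lengths in bases. The sources used here do not give the counting tool, its use of strand, the genome build or the library scaling. The values were not simply divided by the total of assigned fragments. For COL20A1, 4 fragments stood for 0.0336 FPKM in PKP2_het replicate 1, which held 26991559 fragments. In PKP2_het replicate 3, with 31313628 fragments, 4 fragments stood for 0.0398 FPKM. Whole fragments were recovered from the deposited FPKM and lengths for 100% of values (tolerance 0.01).

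All 43 members matched the RefSeq Sscrofa11.1 gene table in start and end. That table only named genes, and the printed coordinates are the deposited ones. Of 30550 genes, the 10757 that reached 1 FPKM in 4 or more of the 8 libraries were tested as log2(FPKM + 1) with limma 3.58.1 in R 4.3.3 (intensity trend, two-sided, Benjamini-Hochberg over all genes, adjusted p under 0.05), including only the 2 groups. Chain ratios used exact permutation over 70 relabellings (SciPy 1.17.1). Intervals on pooled fragments are 95% exact binomial and cover counting error only.

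Values in every library were to be given for PKP2, members with an unadjusted p under 0.05 or non-overlapping groups, the up to 3 highest members of each class, both chains of each ratio, the 2 smallest p per pathway role and the 2 highest markers of a described list. Some of the pathway genes and markers are given by group mean, range or adjusted p instead. All other members are given by range or fragment count, so that each is accounted for. Genes outside this rule (POSTN, COMP, OGN, MMP9, the 4 low members plotted and the placeholder rows) were chosen after their values were seen. Members and lists were chosen with earlier results of these data known. Of 89 markers 87 were matched by symbol, as were 83 of 84 pathway genes, with 1 more by its protein annotation. Further alternatives covered pseudocount, filter, scaling, gene length, voom, library weights, the replicate number as a block and omitted libraries. The voom fit on genes with at least 40 fragments was chosen after seeing the data. The labels do not say that a replicate number marks a shared litter or day, and same-numbered libraries correlated in their deviations at -0.39, 0.033, -0.229 and 0.201, so the libraries were treated as unpaired.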

Additional observations from a re-analysis of the deposited data

Results flagged for a closer look

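In groups of 4 libraries, a value was singled out where its gap to the nearest other library, divided by the range of the group, exceeded Dixon's 95% critical value for a group of that size. Of 66 groups examined 8 met this. Chance gives about 1 in 20 independent groups, but these are not independent: the fibrillar and basement membrane sums hold COL3A1 and COL4A1, and the 3 WT values of 0 for COL10A1 fix its result. PKP2_het replicate 2 was high for COL3A1, at 94.3 FPKM against 57.1 to 57.9 in the other PKP2_het libraries. The same library was high for COL6A2, at 42.0 against 25.9 to 27.7 FPKM, and for COL6A3, at 20.6 against 9.86 to 10.6 FPKM. Its fibrillar sum was 197.7 FPKM, against 116.7 to 129.4 FPKM in the others. WT replicate 3 was low for COL4A1, at 44.7 against 67.3 to 70.5 FPKM in the other WT libraries. Its basement membrane sum was 86.2 FPKM, against 133.2 to 141.2 FPKM. PKP2_het replicate 3 was high for the ratio of COL6A1 over COL6A2, at 1.27 against 0.809 to 0.884. For COL10A1, WT replicate 4 held the single WT fragment, at 0.0157 FPKM, and the other WT libraries were listed at 0.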

How the results depend on the processing

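Of 18 alternatives, 16 gave 0 collagen calls. Library quality weights gave 2 (6.13% of all genes tested) and leaving out PKP2_het replicate 1 gave 1 (1.23%). Leaving out 1 library thus gave 0 to 1. The cause was not tested. Calls over all genes were 200, and they were 67 with a mean of at least 5 FPKM (fewer genes tested), 95 with equal FPKM sums, 659 with weights and 115 to 314 when 1 library was left out (115 without WT replicate 4, 119 without WT replicate 2, 132 without PKP2_het replicate 1 and 314 without PKP2_het replicate 3). Collagen pathway genes called were 1 with no filter (1.1% of all genes), 3 with weights (6.13%) and 2 without PKP2_het replicates 3 and 4 (1.71%), and 0 to 0 when 1 library was left out. The PKP2 log2 fold change passed with weights (-0.57, limma adjusted p = 0.0203) and ran from -0.77 to -0.48 when 1 library was left out. The log2 difference of COL6A1 over COL6A2, 0.0055, was -0.16 without PKP2_het replicates 3 and 4 and ran from -0.14 to 0.079 when 1 library was left out, and that of COL6A3 over COL6A1 ran from -0.099 to 0.20. With the replicate number as a block, 0 collagen and 105 genes in all were called, where the exact sign-flip test of a ratio over 4 pairs cannot go below p = 0.125 and so bears on no ratio. COL18A1, COL5A3 and COL5A2 kept a positive and COL4A1, COL4A2 and COL1A1 a negative log2 fold change in all 18 alternatives. The small log2 fold changes of COL1A2, COL5A1, COL6A2, COL6A3 and COL15A1 changed sign when certain single libraries were left out, within -0.32 to 0.038, -0.051 to 0.20, -0.19 to 0.079, -0.19 to 0.15 and -0.22 to 0.028, without a call. Depth limits members with few fragments, where 3 fragments correspond to 0.0436 to 0.0647 FPKM for COL10A1.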
